A study of Mus musculus with 3 samples.

Results

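The MS4A family (membrane-spanning 4-domains, subfamily A) was examined in macrophages sorted from mouse kidneys. Its members were taken by symbol from a table of 14811 genes, where 8 of the 9 symbols sought were listed: Ms4a2, Ms4a4a, Ms4a4b, Ms4a4c, Ms4a6b, Ms4a6c, Ms4a6d and Ms4a7. Ms4a1 was not analysed here. RNA-seq was done on 1 library from each of 3 C57BL/6J mice, all of a single group. Each mouse was given phosphate-buffered saline (PBS) into a vein, its kidneys were taken 1 h later, and the tissue was digested before the macrophages were sorted by flow cytometry. There was no second group, so the data give levels, ratios between genes within a library, and differences between mice. The sources used here give neither the age nor the sex of the mice.

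MS4A proteins cross the membrane several times and sit beside immune receptors, where many of them act as adaptors or regulators. The best known are MS4A1, the B cell antigen CD20, and MS4A2, the beta chain of the high-affinity IgE receptor of mast cells and basophils. MS4A7, MS4A4A and the MS4A6 group are best known from monocytes and macrophages, and in human the locus is linked to the risk of Alzheimer disease. In mouse the genes lie in a cluster on chromosome 19, where the listed ones follow each other in the order Ms4a14, Ms4a7, Ms4a4a, Ms4a4c, Ms4a4b, Ms4a6c, Ms4a6b, Ms4a4d, Ms4a6d and Ms4a2.

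Members of the cluster arose by duplication, and in the pairs shown here the similarity reaches into the upstream regions. Other pairs of family windows shared runs of 9 bases at most. The 250 bases before the transcript start are shown for the pairs Ms4a6c and Ms4a6b, which had similar levels, and Ms4a4c and Ms4a4b, which did not. Sequences are from RefSeq, written 5′ to 3′ on the gene's strand, and capitals mark the longest run of bases that both genes of a pair share.
Ms4a6c, GRCm38.p6, chr19:11469118-11469367, + strand: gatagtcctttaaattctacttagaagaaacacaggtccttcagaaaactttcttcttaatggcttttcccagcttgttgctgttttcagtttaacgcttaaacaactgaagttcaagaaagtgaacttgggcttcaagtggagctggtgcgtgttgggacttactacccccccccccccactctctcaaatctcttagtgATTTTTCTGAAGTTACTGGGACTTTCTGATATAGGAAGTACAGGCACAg
Ms4a6b, GRCm38.p6, chr19:11518309-11518558, + strand: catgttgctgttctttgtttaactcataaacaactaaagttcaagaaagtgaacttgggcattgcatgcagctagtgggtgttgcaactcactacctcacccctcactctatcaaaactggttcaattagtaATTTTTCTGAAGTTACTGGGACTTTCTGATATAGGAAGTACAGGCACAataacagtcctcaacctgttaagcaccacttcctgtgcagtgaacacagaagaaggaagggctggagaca
Ms4a4c, GRCm38.p6, chr19:11407411-11407660, + strand: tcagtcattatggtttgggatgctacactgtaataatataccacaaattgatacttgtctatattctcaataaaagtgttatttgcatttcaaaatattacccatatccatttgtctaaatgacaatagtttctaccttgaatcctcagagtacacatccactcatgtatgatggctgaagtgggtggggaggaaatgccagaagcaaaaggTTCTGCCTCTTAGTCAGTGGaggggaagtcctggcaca
Ms4a4b, GRCm38.p6, chr19:11443308-11443557, + strand: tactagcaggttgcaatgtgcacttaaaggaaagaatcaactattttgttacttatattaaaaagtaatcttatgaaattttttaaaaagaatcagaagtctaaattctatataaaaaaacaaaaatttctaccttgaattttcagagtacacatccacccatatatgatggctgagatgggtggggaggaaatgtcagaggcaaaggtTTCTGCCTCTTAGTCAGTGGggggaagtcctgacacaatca
Ms4a6c and Ms4a6b shared a run of 48 bases, which ended 2 bases before the annotated start in Ms4a6c and 71 bases before it in Ms4a6b. Ms4a4c and Ms4a4b shared a run of 20 bases. Over the aligned parts of the windows, 88.4% of 173 bases were identical in the Ms4a6 pair and 83.3% of 227 bases in the Ms4a4 pair. Only aligned bases count here, so other pairs of family windows also had high values. They ranged from 61.8% to 83.9% (the latter over 31 bases), and Ms4a7 and Ms4a14 had 76.0% of 204 bases. Each run occurred in 2 of the 32851 promoter windows of the table. A window was found for 7 of the 9 symbols sought, and none for Ms4a1 and Ms4a6d. The letters GGAAGT on either strand, a core bound by ETS factors such as PU.1 (a myeloid transcription factor), were in 5 of these 7 windows and in 19.7% of all windows. The related letters GAGGAA were in 2 of the 7 windows, those of Ms4a4c and Ms4a4b, and in 23.3% of all windows. GAAA followed after any 2 bases by a further GAAA, the core of the interferon-stimulated response element, was in 0 of the 7 windows and in 2.98% of all windows, and TATAAA was in 1 of the 7 and in 12.4% of all. Both strands were searched for each of these, and the matches describe the letters of the windows only. The letters were chosen after the sequences were seen, so these counts are not a test. In Ms4a6c and Ms4a6b a GGAAGT lies within the shared run, and in Ms4a4c and Ms4a4b just after it. The matches within a pair are therefore not independent.

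The libraries held 50646558 to 56718534 reads over the listed genes. Levels are normalised read counts, that is, reads divided by a size factor per library. Levels per kb are divided by the summed length of a gene's exons. A read count of 0 allows up to 3 reads, which is 2.42, 1.66 and 2.11 normalised reads in mice 1, 2 and 3 and covers counting error only. The labelled cell type was checked on 12 macrophage genes, of which 12 were at 1000 or more in every mouse, against 14.7% of all listed genes. RNA of other kidney cells was present too. The 8 tubule genes summed to 42141, 198573 and 18499.8 normalised reads in mice 1, 2 and 3, led by Kap and Miox, and 5 of them reached 10 in each mouse, against 44.4% of all listed genes. Of other blood and vessel cells, 1 of 6 listed dendritic cell genes, 0 of 2 neutrophil genes and 1 of 5 endothelial genes reached 10 in each mouse.

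Together the 8 listed members took 0.513%, 0.288% and 0.382% of the reads in mice 1, 2 and 3 (0.395% ± 0.113, SD, n = 3). Ms4a7, Ms4a6b, Ms4a6c, Ms4a6d and Ms4a4c were at 1000 or more in every mouse, which makes 5 of 8 listed members, against 14.7% of all listed genes. No further member passed 10 in every mouse, so that count was 5 of 8 as well, against 44.4% of all listed genes. Ms4a7 alone took 43.1% ± 11.1 of the family's reads, and Ms4a6b, Ms4a6c and Ms4a6d together took 52.8% ± 11.0 (SD, n = 3). In bulk libraries, fewer cells that express a gene and less RNA per cell cannot be told apart.

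Ms4a7, a marker of mature macrophages, had the highest mean of the members, but not the highest value in every mouse. It had 99822, 46645 and 41552 normalised reads in mice 1, 2 and 3 (62673 ± 32273, SD, n = 3). Mouse 1 was far above the other mice, which lay close together. Per kb of exon, Ms4a7 had 22417, 10475 and 9331 normalised reads (14074 ± 7247, SD, n = 3). Its mean per kb was above that of 99.3% of the genes with a known exon length.

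The Ms4a6 genes are expressed by myeloid cells. Ms4a6b had 55810.2, 22918 and 48614 normalised reads in mice 1, 2 and 3, and Ms4a6c had 29190.2, 13565 and 23409. Both were lowest in mouse 2, with mice 1 and 3 nearer to each other. Ms4a6d, whose product has been reported in mouse macrophages to join the complement receptor Vsig4 in a complex that restrains the Nlrp3 inflammasome, had 16044, 4328 and 17172. It too was lowest in mouse 2. Per kb, the means were 10758 ± 3854 for Ms4a6c, 9464 ± 3855 for Ms4a6b and 7213 ± 4099 normalised reads for Ms4a6d (SD, n = 3). These lay above 99.1%, 98.9% and 98.6% of genes.

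Ms4a4c, a neighbour of Ms4a4a and Ms4a4b in the cluster, came next. It had 6274, 3135 and 5629 normalised reads in mice 1, 2 and 3 (5013 ± 1658, SD, n = 3), again lowest in mouse 2. Per kb its mean was 2863 ± 947 normalised reads, above that of 96.1% of genes.

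Sequence similarity limits how well these genes can be told apart. Of all stretches of 50 bases in the annotated transcripts of a gene, 10.5% were shared with another gene for Ms4a6c, 8.19% for Ms4a4c, 3.57% for Ms4a6b, 2.54% for Ms4a6d and 2.40% for Ms4a4b. The share was 0.306% for Ms4a7 and 0 for Ms4a4a. Ms4a6c shared most with Ms4a6b (5.85%) and Ms4a4c with Ms4a4b (7.73%). Reads from these stretches can have been left out, or given whole to either gene, by the authors' counting. In addition, 53.1% of the exon bases of Ms4a6c (1088 bases) lie opposite exons of BE692007, a transcript of the other strand. BE692007 was listed at 2717, 5657 and 6169.9 normalised reads in mice 1, 2 and 3, lowest in mouse 1, where Ms4a6c was highest. The sources used here do not say whether the counting used strand, so the separate values of Ms4a6c and BE692007 are uncertain.

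**Figure D1:**
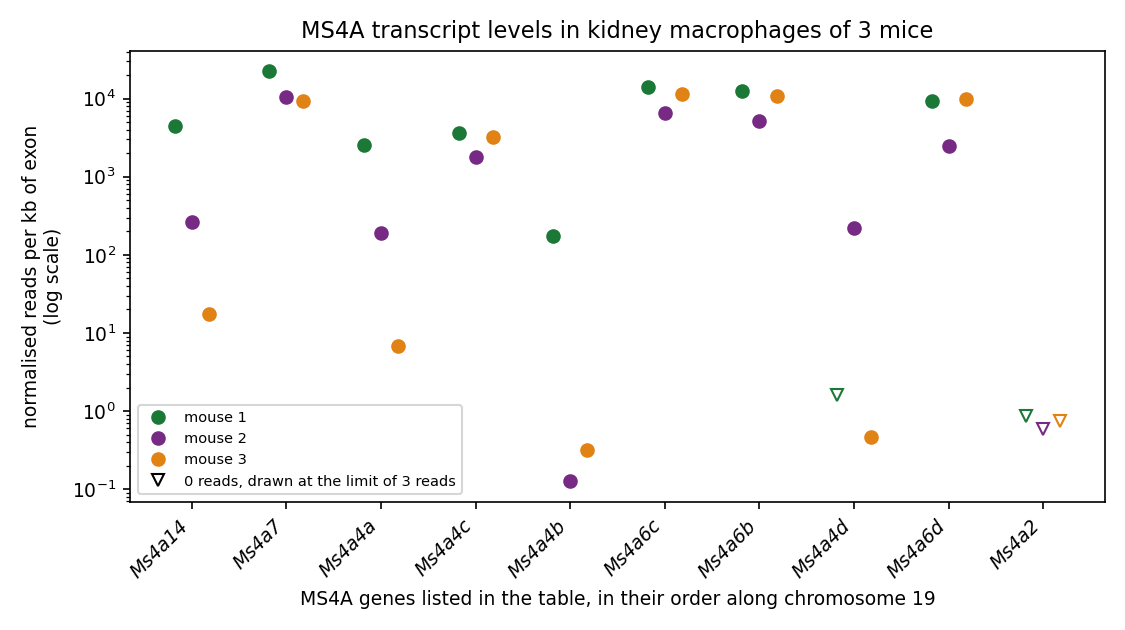
Normalised reads per kb of exon on a log scale for the MS4A genes listed in the table, drawn in their order along chromosome 19, with 1 point per mouse. Ms4a7, Ms4a6c, Ms4a6b, Ms4a6d and Ms4a4c lie above 1000 per kb in every mouse, while Ms4a14, Ms4a4a, Ms4a4b and Ms4a4d differ between mice by orders of magnitude, and Ms4a2 was at 0 in every mouse; open triangles stand for 0 reads and are drawn at the limit of 3 reads.

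Ms4a4a and Ms4a4b were found mainly in mouse 1. Ms4a4a, which in human and mouse macrophages is associated with the beta-glucan receptor Dectin-1 (Clec7a), had 2161, 159.8 and 5.64 normalised reads in mice 1, 2 and 3. The value in mouse 3 rests on 8 reads, and the ratio of mouse 1 to mouse 3 was 383-fold (95% exact interval 194 to 888, counting error only). Ms4a4b, known from mouse T cells, had 1552, 1.11 and 2.82. Its values in mice 2 and 3 rest on 2 and 4 reads, and mouse 1 was 1399-fold above mouse 2 (95% exact interval 387 to 11557) and 551-fold above mouse 3 (215 to 2023). These were 2 of the 7 members with a mean of 10 or more that reached 1000 in a mouse and stayed under 10 in another, a pattern shown by 9.71% of all genes with such a mean. The 4 listed genes of 11 T and NK cell markers summed to 2.42, 3.88 and 118 normalised reads in mice 1, 2 and 3, so they were near the floor in mouse 1, where Ms4a4b was highest. The value in mouse 3 was almost all Cd4 (161 reads), and Cd3e was at 0 in every mouse. The part of T and NK cells in the level of Ms4a4b was not tested.

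Ms4a14, the neighbour of Ms4a7 in the cluster and not among the members sought, was also highest in mouse 1, with the order of mice seen for Ms4a4a. It was at 18102, 1083 and 70.5 normalised reads in mice 1, 2 and 3, a 257-fold difference between mice 1 and 3 (95% exact interval 211 to 316). The Ms4a14/Ms4a4a ratio per kb was 1.74-fold, with log2 ratios of 0.78, 0.47 and 1.15 in mice 1, 2 and 3. Its SD over mice was 0.34. The Ms4a14/Ms4a4b ratio varied more, with log2 ratios of 4.65, 10.12 and 5.34 (SD 2.98). The exons of Ms4a14 and Ms4a7 do not overlap in the annotation used, and no stretch of 50 bases of Ms4a14 was shared with another gene.

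Summed monocyte transcripts were also highest in mouse 1, as were those of dendritic cell genes (3959.8, 1333 and 1885 normalised reads in mice 1, 2 and 3). Most of the dendritic cell sum was Clec9a (3421, 1330 and 1462). Xcr1 was at 534, 2.77 and 407, Cd209a and Ccr7 were at 0 in every mouse, and Zbtb46 had reads only in mouse 3. The macrophage sum was highest in mouse 1 too, but so was the total of all normalised reads (41090916.8, 31477805.9 and 35696101.5 in mice 1, 2 and 3). Set against these totals, the macrophage sum was highest in mouse 3. The 6 listed genes of 9 monocyte markers summed to 31112, 9275 and 16592 normalised reads in mice 1, 2 and 3, with 2 of them at 10 or more in every mouse. Most of the sum was Ccr2, the receptor that monocytes follow into tissue, at 29145, 8939 and 12215 normalised reads. Ly6c2, the surface antigen of classical monocytes, was at 1069, 2.77 and 0.705, and Plac8, a further monocyte gene, was at 465 in mouse 1 and at 0 in mice 2 and 3. Ly6c2 and Plac8 were picked out after their values were seen, and other markers of the list differed: Spn was highest in mouse 3 and Vcan had 1 read in all. The part of monocytes in the levels of Ms4a4a, Ms4a4b and Ms4a14 was not tested.

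**Figure D2:**
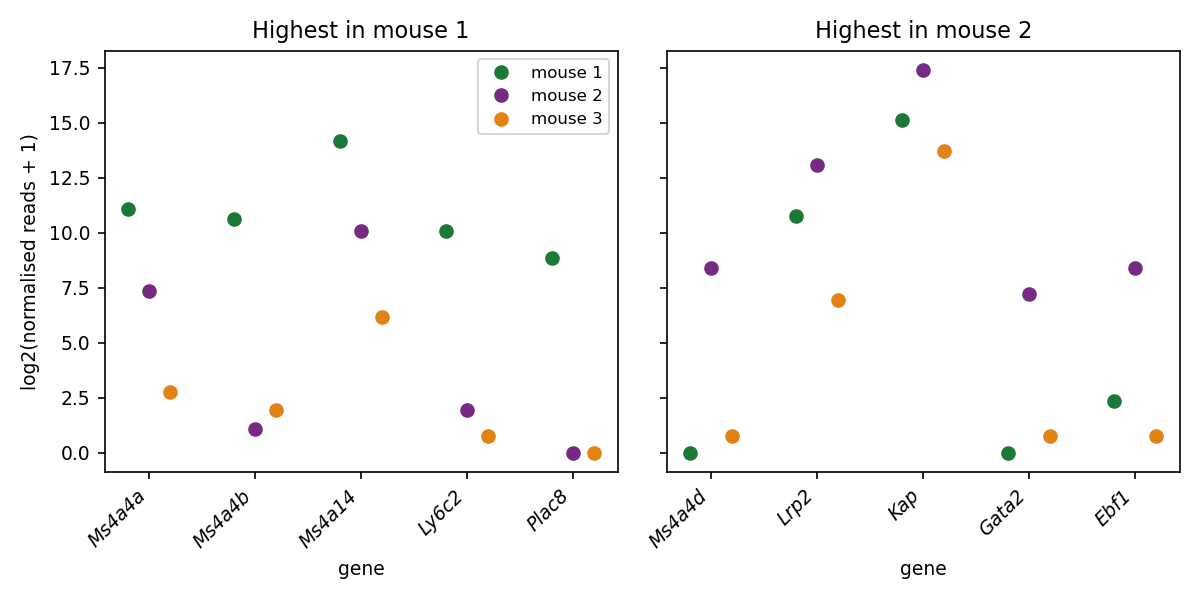
Log2(normalised reads + 1) in each of 3 mice (1 point per mouse) for MS4A genes found mainly in a single mouse, beside marker genes picked out after their values were seen. On the left, Ms4a4a, Ms4a4b and Ms4a14 are highest in mouse 1, as are the monocyte genes Ly6c2 and Plac8; on the right, Ms4a4d is highest in mouse 2, as are the tubule genes Lrp2 and Kap and the transcription factor genes Gata2 and Ebf1, while other genes of the same lists, such as Umod and Cd79b, were highest in mouse 3.

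Ms4a4d, a family gene that was not among the members sought, was found in mouse 2. It was at 0, 337 and 0.705 normalised reads in mice 1, 2 and 3, from 0, 608 and 1 reads. Mouse 2 was at least 139-fold above mouse 1 against a floor of 3 reads in that library, and 479-fold above mouse 3 (95% exact interval 85.6 to 18940.5). Mouse 2 also had the highest sum over tubule genes, 198573 normalised reads, and the most genes above 0, 12853 against 12019 and 11883 in mice 1 and 3. Its library was the deepest as well, with 56718534 reads against 50951549 and 50646558 in mice 1 and 3. Within the tubule list Umod went another way, at 40.3, 598 and 998 in mice 1, 2 and 3. The part of other kidney cells in the level of Ms4a4d was not tested.

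Ms4a2 was at 0 in every mouse, as were 6.59% of all listed genes. Per kb, Ms4a7 was at least 12414-fold above Ms4a2 in each mouse against a floor of 3 reads per library, and Ms4a6b at least 8633-fold. Few markers of mast cells and basophils were listed, 2 of 10, and they were low: Kit was at 0, 35.5 and 0.705 normalised reads and Gata2 at 0, 145 and 0.705 in mice 1, 2 and 3. Fcer1a, the alpha chain of the IgE receptor, was not analysed here. The gamma chain Fcer1g, which Fc gamma receptors use as well, was at 158713, 139328 and 153561 normalised reads in mice 1, 2 and 3, high in every mouse. Of the B cell markers, 4 of 10 were listed. Cd22 was at 0 in every mouse, while Cd79b, a chain of the B cell receptor complex, was at 227, 3940 and 6359 normalised reads in mice 1, 2 and 3. The other listed genes went another way, highest in mouse 2: Ebf1 was at 4.03, 337 and 0.705, and Vpreb3 at 0, 53.8 and 0. Of the 4 listed genes 1 reached 10 in every mouse, against 44.4% of all listed genes.

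Levels of the 7 members with reads were ordered per kb as Ms4a7, Ms4a6c, Ms4a6b, Ms4a6d, Ms4a4c, Ms4a4a and Ms4a4b, and each pair was compared within each library. Ratios are log2 of (normalised reads + 1) per kb, with the higher gene on top, and were tested with limma across 11602 genes, each set against the lower gene of the pair. Of the 21 pairs, 18 had the same direction in 3 of 3 mice, and 0 reached an adjusted p under 0.05, although 8 had an unadjusted p under 0.05 by limma. The order came from these same values. No share over all genes is given for the direction or the unadjusted p, so neither count is read as a result about the family. The shares below are for adjusted p under 0.05. Among all genes, 0% were called higher and 0% lower than Ms4a4a, and 0.577% higher and 0% lower than Ms4a4b. Against Ms4a4c, 0.784% of genes were called higher and 69.6% lower, and against Ms4a6d 0.267% and 81.4%. Against Ms4a6b the shares were 0.328% higher and 89.8% lower, against Ms4a6c 0.302% and 92.2%, and against Ms4a7 0.207% and 93.1%. With 3 libraries, the smallest two-sided p that exact sign flipping allows is 0.25.

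The top of the order could not be separated. The Ms4a7/Ms4a6c ratio was 0.65, 0.66 and -0.29 on the log2 scale in mice 1, 2 and 3, so it was negative in mouse 3 (0.34 ± 0.55, SD, adjusted p = 0.700, limma). Ms4a6c exceeded Ms4a6b slightly in 3 of 3 mice, with 0.19, 0.37 and 0.08 (0.21 ± 0.15, SD, adjusted p = 0.815, limma). These directions depend on the exon lengths. With the length of the principal transcript alone, Ms4a6c/Ms4a6b was -0.37 on the log2 scale, and the Ms4a7/Ms4a6c ratio was positive in 3 of 3 mice (2.24, 2.25 and 1.29, adjusted p = 0.0831, limma). The Ms4a7/Ms4a6b ratio then averaged 1.55 and Ms4a7/Ms4a6d 2.54, both positive in 3 of 3 mice. Ms4a6b exceeded Ms4a6d with 0.43, 1.03 and 0.13 (0.53 ± 0.46, SD, adjusted p = 0.685, limma). Among these 4 genes no neighbours differed by more than the moderated spread.

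Ms4a4c kept a steady distance below Ms4a6c and Ms4a6b. The log2 ratio Ms4a6c/Ms4a4c was 1.99, 1.89 and 1.83 in mice 1, 2 and 3, a 3.74-fold difference (1.90 ± 0.08, SD, adjusted p = 0.0852, limma). The Ms4a6b/Ms4a4c ratio was 1.80, 1.51 and 1.75, or 3.22-fold (1.69 ± 0.15, SD, adjusted p = 0.112, limma). Both differences were many times the SD between mice, but missed the threshold with the spread that limma moderates over all genes. With a spread that follows the level (limma with a trend), the adjusted p was 1.15e-06 for Ms4a6c/Ms4a4c, in a range of 1.15e-06 to 0.237 over the alternatives tried. For Ms4a6b/Ms4a4c it was 4.06e-05 by limma with a trend, in a range up to 0.296. The Ms4a7/Ms4a4c ratio was 2.65, 2.55 and 1.54 (2.24 ± 0.61, SD, adjusted p = 0.0657, limma), with 4.02e-10 under a trend and a range up to 0.195. With principal transcript lengths it averaged 3.96 and was called (adjusted p = 0.0296, limma), and Ms4a6b/Ms4a4c averaged 2.41 (adjusted p = 0.0573, limma). Ms4a6d and Ms4a4c, the neighbours in level, differed by 1.37, 0.48 and 1.62 (1.16 ± 0.60, SD, adjusted p = 0.247, limma, 0.00304 with a trend and a range up to 0.538).

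At the lower end the spread was wide. Ms4a4c exceeded Ms4a4a by log2 ratios of 0.47, 3.22 and 8.66 in mice 1, 2 and 3 (4.12 ± 4.17, SD, adjusted p = 0.494, limma). In mouse 1 Ms4a4a was thus close to Ms4a4c, and in mouse 3 it was far below. Ms4a4a exceeded Ms4a4b by 3.87, 9.64 and 4.19 (5.90 ± 3.25, SD, adjusted p = 0.297, limma). Ms4a7 exceeded Ms4a4b by 6.99, 15.41 and 14.39 (12.26 ± 4.60, SD, adjusted p = 0.0637, limma). When the higher gene of each pair served as the denominator, 9 of 21 pairs were called, each with Ms4a4a or Ms4a4b as the lower gene. The higher genes of those 9 pairs were Ms4a7, Ms4a6c, Ms4a6b, Ms4a6d and Ms4a4c. Against them 69.6% to 93.1% of all genes were called lower, so such a call was usual for any gene.

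**Figure D3:**
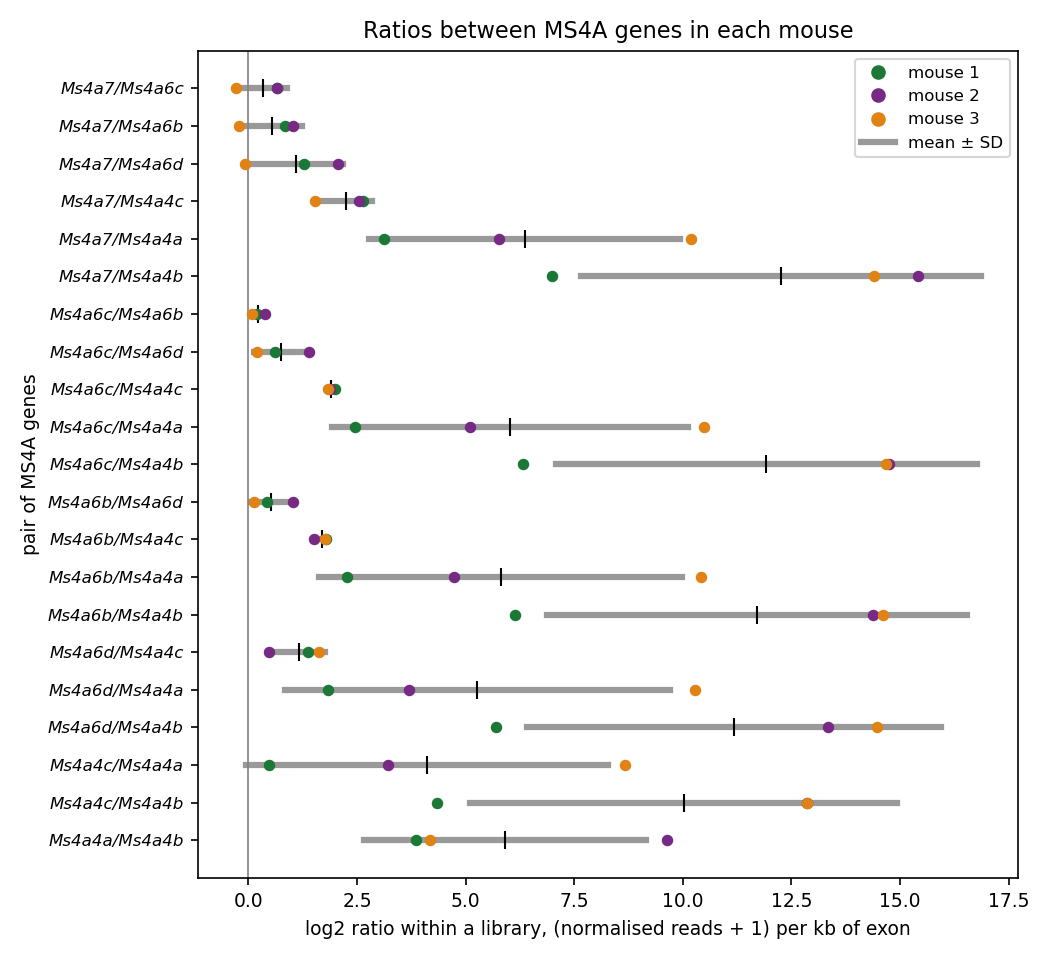
Log2 ratio per kb of exon within each library for the 21 pairs of MS4A members with reads, with 1 point per mouse and the mean ± SD as a line (n = 3). The ratio of Ms4a6c to Ms4a4c differs little between mice (SD 0.08), ratios to Ms4a4a and Ms4a4b differ widely, and the 3 ratios of Ms4a7 to the Ms4a6 genes are below 0 in mouse 3, where they are above 0 with principal transcript lengths.

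The spread between mice followed the level. On the log2(normalised reads + 1) scale the median SD over mice was 0.69 for the 7 members with a mean of 10 or more, and 2.55 for all 11636 such genes. Set against the 500 genes nearest in mean log2 level, the SD of Ms4a7 (0.69) lay above 71% of them, that of Ms4a6b (0.69) above 71.4%, that of Ms4a6c (0.57) above 57.2% and that of Ms4a4c (0.54) above 34.4%. Ms4a6d varied more, with an SD of 1.12, above 89% of its neighbours in level. Ms4a4a had an SD of 4.18, above 74.8%, beside a median of 3.45 for the 500 genes of its level. So a gene of this level that differed widely between mice was usual in these libraries. Ms4a4b had an SD of 5.27, above 96.8%. Ms4a14 was wider than 99.2% of the genes of its level (SD 3.99, median of the 500 genes 1.27).

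**Figure D4:**
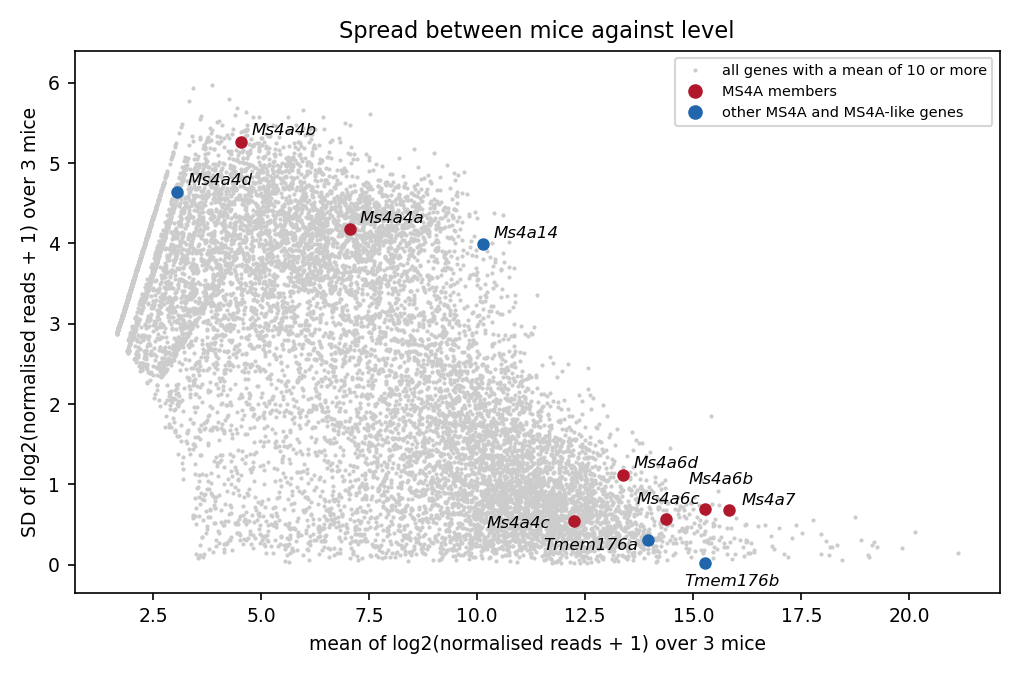
SD against mean of log2(normalised reads + 1) over 3 mice for all genes with a mean of 10 or more (grey), the MS4A members (red) and other MS4A and MS4A-like genes (blue). The 5 abundant members lie among genes of similar level with an SD of 0.54 to 1.12, Ms4a14 lies at the upper edge for its level and Tmem176b at the lower edge.

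Of the 7 members with a mean of 10 or more, 6 were highest in mouse 1, against 34% of all such genes. The exception was Ms4a6d, highest in mouse 3. The normalised values of mouse 1 summed to a larger total than those of the other mice, and with equal totals per library 4 of 7 members were highest in mouse 1, against 29.1% of all genes. Ms4a4c, Ms4a6b, Ms4a6d, Ms4a4b and Ms4a6c, which are 5 of 7, were lowest in mouse 2, against 29.9% of all such genes, and with equal totals these were again 5, against 25% of genes. Mouse 2 also had the highest share of mitochondrial reads, 14.3% against 10.3% in mouse 1 and 8.73% in mouse 3, and the highest tubule sum given above. The part of either in these levels was not tested. Macrophage markers as a group were lowest in mouse 2 as well, with sums of 956294, 683678 and 873971 normalised reads in mice 1, 2 and 3.

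Tmem176a and Tmem176b, related genes on chromosome 6 whose products resemble MS4A proteins, varied little. Tmem176b had 38678, 40019.2 and 39567 normalised reads in mice 1, 2 and 3 (39421 ± 682, SD, n = 3). Its SD of 0.03 on the log2 scale was smaller than that of each of the 500 genes nearest in level. With equal totals per library its SD was 0.22, above 16.8% of such genes, so that rank rests on the size factors. Tmem176a had 15469.7, 12797 and 19694 normalised reads (SD 0.31 on the log2 scale, above 24.2% of genes). Per kb, Tmem176b averaged 16626 ± 288 normalised reads and Tmem176a 4196 ± 913 (SD, n = 3). The log2 ratio Tmem176b/Ms4a7 was -0.46, 0.69 and 0.84 in mice 1, 2 and 3 (adjusted p = 0.736, limma), so the order of these genes differed between mice. With principal transcript lengths this ratio was negative in 3 of 3 mice, at -0.86 on average. Of the 12 other MS4A and MS4A-like genes sought, 4 were listed and 8 were not analysed here.

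Genes whose products have been reported to work with MS4A proteins numbered 8 in the table, of which 6 were at 10 or more in each mouse, against 44.4% of all listed genes. Tyrobp, a signalling adaptor of myeloid receptors, and Fcer1g led them. Clec7a had 7359.8, 13173 and 27716 normalised reads in mice 1, 2 and 3, highest in mouse 3, where Ms4a4a had 8 reads. The kinases Lyn and Syk, which act below the IgE receptor and Dectin-1, were at 20837 ± 13304 and 2654 ± 1893 normalised reads (SD, n = 3). Both were lowest in mouse 2. Nlrp3, an inflammasome sensor, was at 946, 299.7 and 149 in mice 1, 2 and 3. Trem2, a lipid receptor whose soluble form is tied to the MS4A locus in human, was at 0 in every mouse. Tnfrsf18, a T cell costimulatory receptor reported in mouse as a partner of MS4A4B, was at 0, 32.7 and 0. Vsig4 was not analysed here.

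The genes nearest to the top members in level were found by the smallest of the largest log2 differences per kb over 3 mice, among 11602 genes. Nearest to Ms4a7 were Cd14, the lipopolysaccharide co-receptor (0.22), Atp6v1f, a subunit of the lysosomal proton pump (0.38), and Ndufa2, a subunit of respiratory complex I (0.40). Cd14 had 24251, 12224 and 10691 normalised reads per kb in mice 1, 2 and 3, with mouse 1 highest as for Ms4a7. Nearest to Ms4a6b were Gas5, a small nucleolar RNA host gene (0.14), Evi2a (0.18) and Lpar6, a lysophosphatidic acid receptor (0.29). Nearest to Ms4a6c were Nop10, a component of small nucleolar ribonucleoproteins (0.28), Lpar6 (0.28) and Evi2a (0.30). Within 0.5 log2 units lay 7 genes for Ms4a7, 10 for Ms4a6b and 15 for Ms4a6c. The measure weighs level in 3 mice.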

How the data were processed

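RNA was amplified with SMART-seq v4 and libraries were made from 10 ng of cDNA with 8 PCR cycles, per the labels' protocols. The deposited signal is a read count scaled by the authors, whose processing notes name HTSeq 0.5.4, DESeq 1.18.0 and build mm9. The annotation and strand setting are not stated there. Every value held an added 1, which was subtracted, and 100% of the rest were then whole multiples of the library's value of 1 read, within 0.05 of it, which gave reads. Amplified reads carry no molecular identifiers.

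Exon lengths came from GENCODE M21 (another build), by gene identifier, for 99.6% of genes. Ratios were fitted with limma 3.58.1 in R 4.3.3 (intercept only, pseudocount 1, genes with a mean of 10 or more, two-sided, Benjamini-Hochberg over all genes). A check on simulated data used only Ms4a6c as the denominator and set no limit on false calls, so it does not vouch for the p-values. With 3 libraries, p-values rest largely on a spread pooled over all genes set against the same denominator, less on a pair's own SD. For Ms4a6c/Ms4a4c the standard error by limma was 0.77 beside an SD of 0.08. The ratios of members to Ms4a4a all had a standard error of 2.91, whatever their own SD. Promoters are RefSeq, GRCm38.p6. Other steps used Python 3.11.15, numpy 2.4.6, pandas 2.3.3, scipy 1.17.1, Biopython 1.88 and matplotlib 3.10.9. Members, lists and tests were chosen with earlier results of these data known, and the promoter letters after the sequences were seen. Named genes were all members, listed relatives and partners, the highest markers of a list, and the 3 genes nearest to each of the 3 top members.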

Additional observations from a re-analysis of the deposited data

How the results depend on the processing

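The count of members at 10 or more in every mouse was 5 under equal totals and as deposited, and 5 to 6 without a mouse. The count at 1000 or more was 5 in each of these. The family's share of reads was 0.335% to 0.448% without a mouse. Members with a wider spread than 90% of genes of like level numbered 1, and 1 to 2 without a mouse (2 without mouse 2). Of the ratios, 0 of 21 pairs were called by limma with pseudocounts of 1 and 0.1, without the filter on low values, with equal totals and without each mouse (15 pairs could be fitted without mouse 1). By contrast 6 were called with a pseudocount of 10, 4 with a trend, 3 of the 10 pairs fitted among genes at 10 or more in every library, and 2 without division by length. Alternatives added after the data were seen gave 1 call with principal transcript lengths and 9 with the higher gene as denominator. Against the denominators of those 9 calls, 69.6% to 93.1% of all genes were called lower. For the other alternatives no share over all genes is given here, so their counts are not read as results about the members. The Ms4a6c/Ms4a6b ratio turned to -0.92 (log2) without division by length and to -0.37 with principal lengths. With the latter, Ms4a7 was at 46981 and Ms4a6b at 15839 normalised reads per kb. The cause of the other changes was not tested. A planned count test on reads was not run. No paired analysis was possible because there is a single group. Ratios to values of 1 to 4 reads have wide counting intervals.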

Other observations

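Gm8369, a gene that lies between Ms4a6c and Ms4a6b in the cluster, was singled out after its values were seen. It was at 551, 10.5 and 4.93 normalised reads in mice 1, 2 and 3, from 683, 19 and 7 reads. Mouse 1 was 52.2-fold above mouse 2 (95% exact interval 33.2 to 87.3, counting error only) and 112-fold above mouse 3 (53.9 to 279). Its order of mice was that of Ms4a4a and Ms4a14. Its SD on the log2 scale (3.53) lay above 40% of the 500 genes nearest in level, so such a difference was usual at that level.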
